A study of Homo sapiens with 6 samples.

Results

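The enzymes and regulators that build cholesterol and fatty acids were followed in ARPE-19 cells after knockdown of EIF1, a factor of start codon recognition in translation. The list holds 32 genes, chosen by symbol from the 30618 genes of the count table, and all 32 passed the filter on low counts. They comprise 18 enzymes of sterol synthesis, 6 regulators or carriers, and 8 enzymes of fatty acid synthesis. ARPE-19 is a cell line derived from the pigment epithelium of the human retina. Every library came from cells in 50 mM glucose, used as a model of diabetic retinopathy. The NC group was transfected with a negative control siRNA and the siEIF1 group with an siRNA against EIF1, with 3 replicates each that the methods describe as independent. The model is 1 cell line, and both groups shared the high glucose, so the comparison does not address the effect of glucose. The methods list 1 siRNA sequence against EIF1. Effects of that sequence on other genes therefore cannot be told apart from the loss of EIF1.

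Cholesterol is built from acetyl-CoA through mevalonate, isoprenoid diphosphates, squalene and lanosterol. Fatty acids start from the same acetyl-CoA, which ACLY makes from citrate and ACSS2 from acetate, and are then extended by FASN and modified by elongases and desaturases. Both branches are controlled by SREBP transcription factors, encoded by SREBF1 and SREBF2. These are held in the endoplasmic reticulum by SCAP and the INSIG proteins when sterols are plentiful, and are cut and sent to the nucleus when sterols are scarce. In textbook accounts the factor from SREBF2 acts mainly on sterol genes and that from SREBF1 mainly on fatty acid genes, usually together with NF-Y at CCAAT boxes and Sp1 at GC boxes close to the start of transcription.

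The promoters below are shown because SREBP targets are recognised by such short elements, and because they belong to genes that changed in the comparison. They are RefSeq sequences on GRCh38.p14 and cover the 250 bases before an annotated start, 5′ to 3′ on the strand of the gene. Capitals mark the sterol regulatory element TCACNCCAC and the CCAAT box, which reads ATTGG on the other strand. SREBF2 lies at chr22:41832855-41833104 on the forward strand, INSIG1 at chr7:155297628-155297877 on the forward strand and HMGCS1 at chr5:43313413-43313662 on the reverse strand. TM7SF2 lies at chr11:65111622-65111871 on the forward strand, ACLY at chr17:41919023-41919272 on the reverse strand and SCD at chr10:100346983-100347232 on the forward strand.
SREBF2: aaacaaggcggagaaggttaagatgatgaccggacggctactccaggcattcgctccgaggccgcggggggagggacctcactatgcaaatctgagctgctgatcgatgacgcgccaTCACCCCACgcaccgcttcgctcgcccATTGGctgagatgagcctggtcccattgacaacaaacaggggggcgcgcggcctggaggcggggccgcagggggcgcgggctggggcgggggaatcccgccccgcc
INSIG1: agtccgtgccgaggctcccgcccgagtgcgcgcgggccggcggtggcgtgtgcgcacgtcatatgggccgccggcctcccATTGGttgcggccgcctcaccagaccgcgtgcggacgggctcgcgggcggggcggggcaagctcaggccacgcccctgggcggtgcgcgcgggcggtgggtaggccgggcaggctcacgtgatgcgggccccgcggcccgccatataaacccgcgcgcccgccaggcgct
HMGCS1: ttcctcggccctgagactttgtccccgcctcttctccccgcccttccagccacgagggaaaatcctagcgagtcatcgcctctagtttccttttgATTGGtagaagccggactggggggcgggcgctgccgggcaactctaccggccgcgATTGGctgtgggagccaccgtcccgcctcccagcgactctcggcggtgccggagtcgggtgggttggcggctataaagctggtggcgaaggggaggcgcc
TM7SF2: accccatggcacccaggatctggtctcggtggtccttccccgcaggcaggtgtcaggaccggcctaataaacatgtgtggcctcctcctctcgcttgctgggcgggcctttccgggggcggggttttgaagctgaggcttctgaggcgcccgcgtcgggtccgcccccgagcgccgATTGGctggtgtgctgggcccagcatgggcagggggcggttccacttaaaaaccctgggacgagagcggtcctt
ACLY: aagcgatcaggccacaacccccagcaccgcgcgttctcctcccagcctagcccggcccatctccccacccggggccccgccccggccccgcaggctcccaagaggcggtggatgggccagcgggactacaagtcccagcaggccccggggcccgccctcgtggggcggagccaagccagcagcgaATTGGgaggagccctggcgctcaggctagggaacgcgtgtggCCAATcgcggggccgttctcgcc
SCD: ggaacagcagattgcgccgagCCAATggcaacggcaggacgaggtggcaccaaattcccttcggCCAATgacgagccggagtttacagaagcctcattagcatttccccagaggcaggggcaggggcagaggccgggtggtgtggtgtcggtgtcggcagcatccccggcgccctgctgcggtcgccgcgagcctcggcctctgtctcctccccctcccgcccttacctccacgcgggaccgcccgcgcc

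Of the 32 members, 28 were matched by symbol to a promoter of 300 bases, 250 before and 50 after the start. ACAT2, FDFT1, SQLE and FASN were not matched. Where a gene had several promoters, as 9 of the 28 did, only the first listed was searched. Both strands were searched, and matches of different motifs were counted independently. A CCAAT box was present in 18 of the 28 (64.3%), against 36.2% of 11224 promoters of tested genes and 34.6% of all 35114 promoters. It was found in 8 of 9 enzymes from squalene to cholesterol (LSS, TM7SF2, MSMO1, NSDHL, HSD17B7, EBP, SC5D and DHCR7), in 4 of 6 mevalonate enzymes, and in 3 of 7 fatty acid enzymes (ACLY, ACSS2 and SCD). The sterol regulatory element was matched exactly in 1 promoter, that of SREBF2, where its first base lies at -133, before an inverted CCAAT box at -106. It was present in 1.15% of the promoters of tested genes. The GC box GGGCGG occurred in 26 of 28 members, against 69.7% of tested genes. The E-box CACGTG, which reads alike on both strands, occurred in 4 (LSS, SC5D, INSIG1 and SCAP), against 9.97% of tested genes. These matches describe letters in a window and not bound sites. CCAAT boxes stand in promoters of genes that rose (HMGCS1, MVD, LSS, TM7SF2, INSIG1, SREBF2, SCD), of the gene that fell most (ACLY), and of 10 genes that did not pass the test (MVK, FDPS, MSMO1, NSDHL, HSD17B7, EBP, SC5D, DHCR7, STARD4 and ACSS2).

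**Figure D1:**
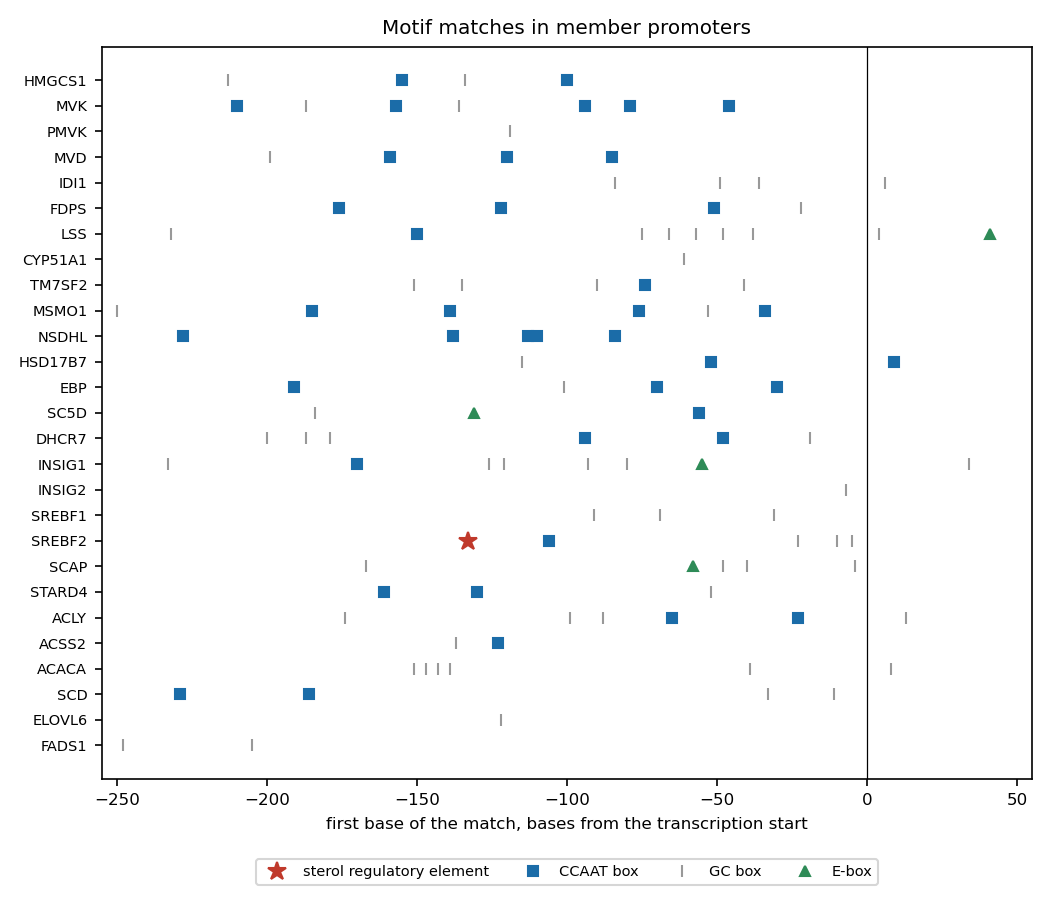
Positions of motif matches in the promoters of the members, in bases from the annotated start (x axis), with 1 row per gene. CCAAT boxes (squares) occupy most rows of the sterol genes from HMGCS1 to DHCR7, and the single star at -133 is the sterol regulatory element of SREBF2. FADS2 was searched and has no row because it held none of the 4 motifs.

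The libraries held between 26499929 and 31431479 counts. EIF1 itself had an FPKM (fragments scaled by transcript length and by library size) of 294.4, 281.1 and 281.3 in the NC and of 24.3, 22.7 and 23.5 in the siEIF1 libraries. Its log2 fold change was -3.58 (standard error 0.055). Of 12 proliferation genes such as MKI67, TOP2A and CDK1, 12 were lower in siEIF1 at an adjusted p under 0.05, with a median log2 fold change of -1.02. Their summed FPKM lay between 124.7 and 129.6 in NC and between 89.8 and 94.7 in siEIF1. Of 12 pigment epithelium and epithelial markers, 10 were analysed here, and RPE65 and TTR were not listed among the counted genes. TYRP1 did not pass the filter on low counts. KRT18, KRT8, BEST1 and OTX2 were expressed, while RLBP1, PMEL and TYRP1 had mean FPKM values under 1 in both groups. Summed FPKM of these markers ran from 526.4 to 545.4 in NC and from 569.9 to 615.5 in siEIF1. KRT18 (mean FPKM 326.5 in NC and 382.0 in siEIF1) and KRT8 (113.0 and 131.5) make up most of this sum and rose. RLBP1 rose from a low level (0.237 and 0.680, edgeR adjusted p = 0.00102). BEST1 had 70.8, 66.6 and 60.5 FPKM in NC and 62.1, 55.04 and 38.8 in siEIF1, with a log2 fold change of -0.32 that did not pass (edgeR adjusted p = 0.106). Summed FPKM of the mesenchymal markers, mostly VIM, ran from 831.4 to 854.9 in NC and from 1007 to 1069 in siEIF1. COL1A2, LUM and THY1 had mean FPKM values of at most 0.01 in both groups. Of the 8 markers, 4 were tested, all 4 had a positive log2 fold change, and 3 passed (VIM, PDGFRB and FN1). The endothelial and immune markers summed to at most 1.22 in any library. The part that these shifts play in the results on lipid genes was not tested. In bulk RNA, less RNA per cell and fewer cells that express a gene cannot be told apart.

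The members moved in both directions and by modest amounts. Among the 32, 11 were higher and 4 lower in siEIF1 (edgeR's quasi-likelihood test, Benjamini-Hochberg adjusted p under 0.05 over 16749 tested genes), which is 46.9% of them. Over all tested genes, 20.6% passed in either direction, 10.2% higher and 10.4% lower. The members are well counted genes, with mean counts from 242.8 to 5868. Among the 10139 genes with at least the mean count of the least counted member, 27.3% passed, 14.1% higher and 13.2% lower. The members were chosen with earlier results of these data known, so these shares describe the list and do not test it. No member changed by more than 2-fold, a limit that 1.71% of all genes passed together with the test. The fold changes of the members ran from 0.655 for ACLY to 1.27 for INSIG1. CPM values (counts scaled by library size and the TMM factor, without transcript length) did not overlap between the groups in 18 members, 13 above and 5 below, where 37.1% of all genes did not overlap, 18.2% above and 18.9% below.

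Sterol enzymes had 6 of 18 higher and 0 lower at an adjusted p under 0.05 by edgeR, and 0 lower also at an unadjusted p under 0.05 and by DESeq2. Their median log2 fold change was 0.105, beside 0.0033 over all tested genes. Fatty acid enzymes had 2 of 8 higher and 3 lower, with a median of 0.023. Regulators and carriers had 3 of 6 higher and 1 lower, with a median of 0.15, which was 0.096 without NC replicate 1. Beside these counts, 10.2% of all tested genes were higher and 10.4% lower. Among genes with at least the mean count of the least counted member, the shares were 14.1% and 13.2%. Neither the difference between the branches nor the difference from these shares was tested. The median of the fatty acid enzymes averages opposite changes and turned to -0.087 without siEIF1 replicate 3 and to -0.0047 without NC replicate 2. Without siEIF1 replicate 2, 2 of the 6 calls in sterol enzymes were left, and over all members 6 were higher. There were 6 higher members also without NC replicate 1 and 7 without NC replicate 2. With limma on log2(FPKM + 1), 3 members were higher (HMGCS1, MVD and INSIG1) and 3 lower (ACLY, ELOVL6 and FADS1), and with a pseudocount of 0.1 these were MVD, ACLY and FADS1.

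**Figure D2:**
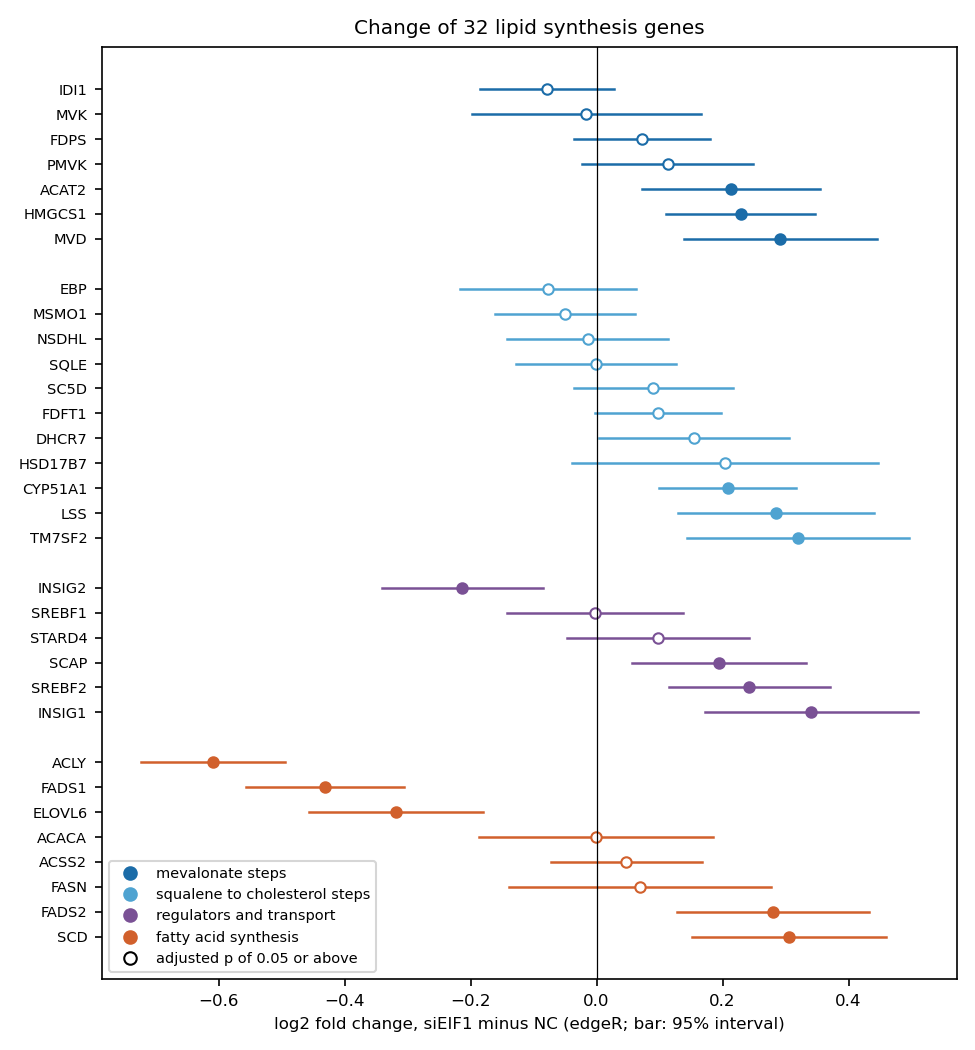
Log2 fold change of each member (x axis, siEIF1 minus NC) with its 95% interval, grouped by branch. Filled points passed the test and open points did not. Sterol enzymes (blue shades) have filled points only above 0, while fatty acid enzymes (orange) run from -0.61 for ACLY to 0.31 for SCD.

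In the mevalonate part, 3 of 7 enzymes (42.9%) passed the test as higher. Among all genes with at least the mean count of the least counted member, 14.1% did. HMGCS1, the synthase that makes the precursor of mevalonate, had FPKM values of 4.86, 5.29 and 5.23 in NC and of 5.80, 5.86 and 6.11 in siEIF1. All siEIF1 libraries lay above all NC libraries, and the log2 fold change was 0.23 (standard error 0.055, edgeR adjusted p = 0.00999). Leaving out any 1 library kept this call, with an adjusted p of at most 0.0426.

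MVD, which removes carbon dioxide from mevalonate diphosphate to give the isoprenoid unit, rose from 2.79, 2.98 and 2.85 FPKM to 3.52, 3.54 and 3.34 FPKM. Its groups did not overlap, and the log2 fold change of 0.29 (standard error 0.071, edgeR adjusted p = 0.0108) was the largest of the mevalonate enzymes. Without NC replicate 3 the adjusted p of MVD was 0.0510, and leaving out siEIF1 replicate 2 gave 0.0547.

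ACAT2, the cytosolic thiolase that joins the first acetyl units, had FPKM values of 7.72, 7.82 and 8.86 in NC and of 9.60, 8.85 and 9.41 in siEIF1. The groups overlap slightly on the FPKM scale and are separate on the CPM scale. The log2 fold change was 0.21 (standard error 0.065, edgeR adjusted p = 0.0346). This call was lost without NC replicate 1 (adjusted p = 0.121), NC replicate 2 (0.132), siEIF1 replicate 1 (0.0916) or siEIF1 replicate 2 (0.0685), and with DESeq2 (0.0694). In the annotation, 17.2% of the exonic bases of ACAT2 are shared with TCP1 on the opposite strand.

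The remaining mevalonate enzymes did not pass the test. PMVK, a kinase and the most abundant mevalonate enzyme by FPKM, had 29.1, 28.5 and 27.5 FPKM in NC and 30.5, 31.4 and 28.9 in siEIF1, which overlap. The 95% interval of its log2 fold change ran from -0.023 to 0.25. FDPS, the synthase of farnesyl diphosphate, had a log2 fold change of 0.072 (95% interval -0.035 to 0.18), and 8 annotated pseudogenes carry its name.

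MVK, mevalonate kinase, was the least abundant mevalonate enzyme, with 1.50, 1.68 and 1.53 FPKM in NC and 1.47, 1.48 and 1.65 in siEIF1. These values overlap, and the 95% interval of the log2 fold change ran from -0.20 to 0.17.

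IDI1, the isomerase of the isoprenoid unit, had 9.79, 9.99 and 10.0 FPKM in NC and 9.35, 8.98 and 9.50 in siEIF1. Every siEIF1 library of IDI1 lay below every NC library, although its log2 fold change of -0.079 did not pass (edgeR adjusted p = 0.294). The name of IDI1 is carried by 3 annotated pseudogenes.

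From squalene to cholesterol, 3 of 11 enzymes (27.3%) passed the test as higher, beside 14.1% of the comparably counted genes. TM7SF2, a sterol reductase acting after lanosterol demethylation, had 4.95, 6.03 and 5.63 FPKM in NC and 7.25, 6.80 and 6.40 in siEIF1. The groups did not overlap, and its log2 fold change of 0.32 (standard error 0.082, edgeR adjusted p = 0.0138) was the highest of the sterol enzymes. It did not pass without NC replicate 1 (adjusted p = 0.0643) or siEIF1 replicate 2 (0.0579). LBR, a protein of the nuclear envelope with the same reductase activity, went the other way, from 3.88, 3.61 and 3.72 FPKM to 2.82, 2.54 and 2.80 FPKM (log2 fold change -0.44, edgeR adjusted p = 3.99e-04). The ratio of TM7SF2 to LBR was 1.49 ± 0.199 (SD, n = 3) in NC and 2.51 ± 0.202 (SD, n = 3) in siEIF1.

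LSS, the cyclase that closes squalene epoxide into lanosterol, had 5.54, 6.65 and 6.84 FPKM in NC and 7.18, 7.64 and 8.05 in siEIF1. The log2 fold change of LSS was 0.28 (standard error 0.072, edgeR adjusted p = 0.0134), with no overlap and with NC replicate 1 the lowest library. Without siEIF1 replicate 2 its adjusted p was 0.0606.

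CYP51A1, the cytochrome P450 that demethylates lanosterol, had 21.6, 21.2 and 21.1 FPKM in NC and 24.6, 22.4 and 25.8 in siEIF1. The change of CYP51A1 was 0.21 on the log2 scale (standard error 0.050, edgeR adjusted p = 0.0102), and the NC libraries lay close together below all siEIF1 libraries. Without NC replicate 3 its adjusted p was 0.0614. In the annotation, 68.2% of the exonic bases of CYP51A1 are shared with another gene model on the same strand, so its counts may depend on how that model was treated. Another 3 annotated genes are named as pseudogenes of CYP51A1.

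SQLE, the epoxidase often described as a rate-limiting step, had 11.8, 10.8 and 12.6 FPKM in NC and 11.3, 11.1 and 12.3 in siEIF1. The groups overlapped almost fully, and the log2 fold change was -0.00071 with a 95% interval from -0.13 to 0.13. FDFT1, squalene synthase, had a log2 fold change of 0.098 (95% interval -0.0019 to 0.20), with all siEIF1 libraries above all NC libraries on the CPM scale.

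MSMO1, a methylsterol oxidase, was the most abundant of all 32 members, with 44.4, 41.7 and 45.9 FPKM in NC and 43.1, 38.7 and 43.99 in siEIF1. Its groups overlapped, and the 95% interval of its log2 fold change ran from -0.16 to 0.060. HSD17B7, a sterol ketoreductase, was the least abundant, with 1.30, 1.36 and 1.34 FPKM in NC and 1.64, 1.61 and 1.30 in siEIF1. In HSD17B7 siEIF1 replicates 1 and 2 were high while siEIF1 replicate 3 equalled the lowest NC library. The log2 fold change of 0.20 did not pass (edgeR adjusted p = 0.234) but did without siEIF1 replicate 3 (0.32, adjusted p = 0.0379), and 3 annotated pseudogenes carry the name of this gene.

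Of the last steps, 0 passed by edgeR or DESeq2, and 1 had an unadjusted p under 0.05. DHCR7, the final reductase, had 6.98, 7.38 and 8.54 FPKM in NC and 8.0, 7.96 and 9.20 in siEIF1, which overlap. Its change was 0.16 on the log2 scale (standard error 0.070, edgeR adjusted p = 0.141), and it passed without NC replicate 3 (0.23, adjusted p = 0.0447). It was 0.097 without NC replicate 1 (adjusted p = 0.427) and 0.10 without siEIF1 replicate 3 (0.344). NSDHL (-0.014), EBP (-0.077) and SC5D (0.090), a dehydrogenase, an isomerase and a desaturase of the sterol ring, had log2 fold changes that did not pass. In the annotation, EBP shares 36.4% of its exonic bases with another gene model on the same strand.

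Within the regulators, the INSIG genes moved in opposite directions. INSIG1, itself a target of the SREBP factors and a brake on them, had 3.67, 3.49 and 4.18 FPKM in NC and 4.85, 4.31 and 5.01 in siEIF1. All siEIF1 libraries lay above all NC libraries, and the log2 fold change of 0.34 (standard error 0.079, edgeR adjusted p = 0.0078) was the highest of all members. It passed whichever library was left out, with values from 0.29 to 0.41.

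INSIG2, the relative that binds SCAP in the same way, had 12.7, 11.6 and 12.1 FPKM in NC and 10.6, 9.39 and 11.0 in siEIF1. The siEIF1 libraries lay below all NC libraries, and the change was -0.21 on the log2 scale (standard error 0.059, edgeR adjusted p = 0.0213). This call was lost without NC replicate 1 (adjusted p = 0.0874), NC replicate 3 (0.0547) or siEIF1 replicate 2 (0.105). The FPKM ratio of INSIG1 to INSIG2 within a library was 0.288, 0.300 and 0.346 in NC and 0.456, 0.459 and 0.455 in siEIF1, and the ratio of counts rose 1.47-fold. INSIG2 was the more abundant of the pair by FPKM in every library of both groups.

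SREBF2, which encodes the factor that acts mainly on sterol genes, had 18.8, 19.9 and 21.5 FPKM in NC and 21.7, 23.2 and 25.4 in siEIF1. The groups did not overlap. The change was 0.24 on the log2 scale (standard error 0.059, edgeR adjusted p = 0.0110), and the adjusted p was 0.0547 without NC replicate 1. SREBF2 is the member whose promoter held the exact sterol regulatory element.

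SREBF1 did not pass the test (edgeR adjusted p = 0.986), with 3.19, 3.34 and 3.55 FPKM in NC and 3.31, 3.03 and 3.60 in siEIF1. Its log2 fold change was -0.0023 (95% interval -0.14 to 0.14). The counts do not separate the SREBF1 transcripts that differ in their first exon.

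SCAP, the escort of the SREBP factors, had 8.11, 8.77 and 9.50 FPKM in NC and 9.28, 9.66 and 10.8 in siEIF1. These values overlap on the FPKM scale and are separate on the CPM scale. The log2 fold change of 0.19 (standard error 0.064, edgeR adjusted p = 0.0477) lay close to the threshold, and the call was lost without NC replicate 1 (adjusted p = 0.185), NC replicate 2 (0.118), siEIF1 replicate 2 (0.119) or siEIF1 replicate 3 (0.129), and with RLE factors (0.0508). STARD4, a cytosolic sterol carrier, had a log2 fold change of 0.098 that did not pass (edgeR adjusted p = 0.346), with no overlap on the CPM scale.

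**Figure D3:**
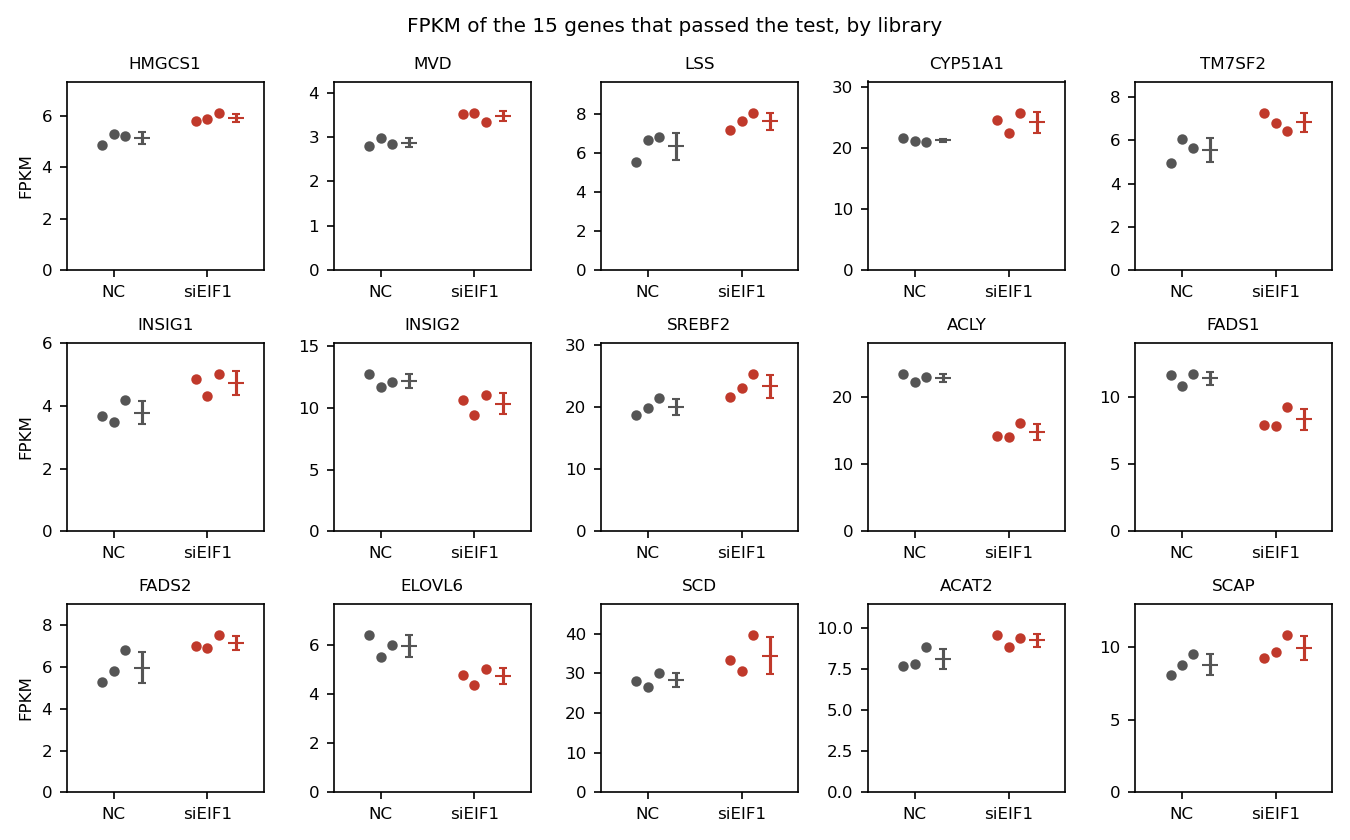
FPKM (y axis, from 0) of the 15 members that passed the test, with 1 point per library and the mean ± SD of 3 libraries beside the points. ACLY shows the clearest gap, from 22.1 to 23.3 in NC and from 14.0 to 16.1 in siEIF1, while the groups of ACAT2 and SCAP overlap on this scale.

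The largest change of all members was that of ACLY, the enzyme that turns cytosolic citrate into acetyl-CoA for both branches. ACLY had 23.3, 22.1 and 22.9 FPKM in NC and 14.1, 14.0 and 16.1 in siEIF1. The gap between the groups was several times the spread within either, and the siEIF1 mean was 65.5% of the NC mean in CPM. The log2 fold change of ACLY was -0.61 (standard error 0.053, edgeR adjusted p = 4.63e-06), and it passed in every alternative fit, from -0.66 to -0.58.

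ACSS2, which makes acetyl-CoA from acetate instead, had 5.96, 6.10 and 5.80 FPKM in NC and 6.17, 5.78 and 6.25 in siEIF1, which overlap. The 95% interval of its log2 fold change ran from -0.073 to 0.17. The ratio of ACSS2 to ACLY was therefore 0.255, 0.276 and 0.254 in NC and 0.437, 0.414 and 0.388 in siEIF1.

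ACACA and FASN, the carboxylase and the synthase that make palmitate, did not pass the test, and their groups overlapped. FASN had 9.72, 10.2 and 11.5 FPKM in NC and 9.15, 10.3 and 13.1 in siEIF1, with a log2 fold change of 0.069 (95% interval -0.14 to 0.28). ACACA had 4.39, 3.95 and 4.66 FPKM in NC and 3.66, 4.19 and 4.96 in siEIF1, with a log2 fold change of -0.00071 (95% interval -0.19 to 0.19).

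The coefficient of variation of the CPM over the siEIF1 libraries ran from 2.17% for ACSS2 to 17.2% for FASN in the fatty acid enzymes, with ACACA at 14.0% and SCD at 11.4%. The median of the 8 was 6.96%, beside 7.15% over all tested genes. In 7 of the 8 fatty acid enzymes siEIF1 replicate 3 was the highest of its group, and in 4 of the 8 NC replicate 3 was the highest of its group. Over all tested genes, siEIF1 replicate 3 was the highest in 36.3% and NC replicate 3 in 30.6%.

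SCD, the desaturase that makes oleate, was the most abundant fatty acid enzyme, with 28.1, 26.6 and 30.2 FPKM in NC and 33.3, 30.6 and 39.7 in siEIF1. The groups did not overlap, with siEIF1 replicate 2 only just above NC replicate 3. The change of SCD was 0.31 on the log2 scale (standard error 0.071, edgeR adjusted p = 0.00833), and the adjusted p was 0.0520 without NC replicate 2. The name of SCD is carried by 1 annotated pseudogene.

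ELOVL6, the elongase that extends palmitate, fell from 6.39, 5.48 and 5.99 FPKM to 4.76, 4.36 and 5.01 FPKM. No siEIF1 library reached the lowest NC library, and the change was -0.32 on the log2 scale (standard error 0.064, edgeR adjusted p = 0.00331). It passed whichever library was left out.

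The desaturases of polyunsaturated fatty acids, FADS1 and FADS2, moved apart. On chromosome 11 the span of FADS1 lies within that of FADS2, on the opposite strand. FADS1 had 11.6, 10.8 and 11.7 FPKM in NC and 7.89, 7.83 and 9.26 in siEIF1, without overlap. Its log2 fold change of -0.43 (standard error 0.058, edgeR adjusted p = 1.87e-04) passed in every alternative fit.

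FADS2 had 5.29, 5.83 and 6.79 FPKM in NC and 6.99, 6.92 and 7.53 in siEIF1, with NC replicate 3 just below the siEIF1 libraries. The log2 fold change of FADS2 was 0.28 (standard error 0.071, edgeR adjusted p = 0.0129), and the adjusted p was 0.0523 without NC replicate 1 and 0.0574 without NC replicate 2. The ratio of FADS2 to FADS1 was 0.456, 0.539 and 0.580 in NC and 0.886, 0.884 and 0.813 in siEIF1, and the ratio of counts rose 1.65-fold. On GRCh38 (GENCODE release 44), FADS1 spans chr11:61799627-61829318 on the reverse strand and FADS2 spans chr11:61792980-61867354 on the forward strand. They share 490 exonic bases, which is 4.79% of those of FADS1, and 4.64% of those of FADS2. The libraries were strand-specific by their protocol, but the strand setting of the counting is not given in the sources used here.

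The 4 ratios above (TM7SF2 to LBR, INSIG1 to INSIG2, ACSS2 to ACLY and FADS2 to FADS1) were chosen after the values were seen. In each of them the groups did not overlap, and the two-sided exact permutation test on the log2 ratio of counts gave p = 0.1. This is the smallest p that 3 libraries against 3 allow and also the value after adjustment over the 4. The adjustment does not cover the choice of pairs, so neither value tests a change in these ratios. A ratio within a library does not depend on how the libraries were scaled.

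**Figure D4:**
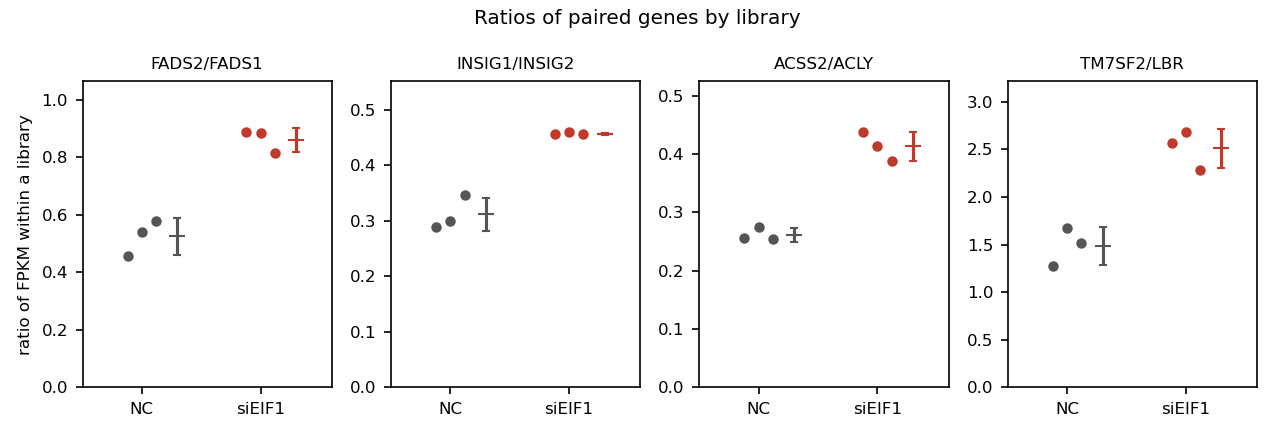
Ratio of the FPKM of paired genes within each library (y axis, from 0), with the mean ± SD of 3 libraries beside the points. The siEIF1 points lie above the NC points in all 4 panels, for example at 0.813 to 0.886 against 0.456 to 0.580 for FADS2 to FADS1.

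**Figure D5:**
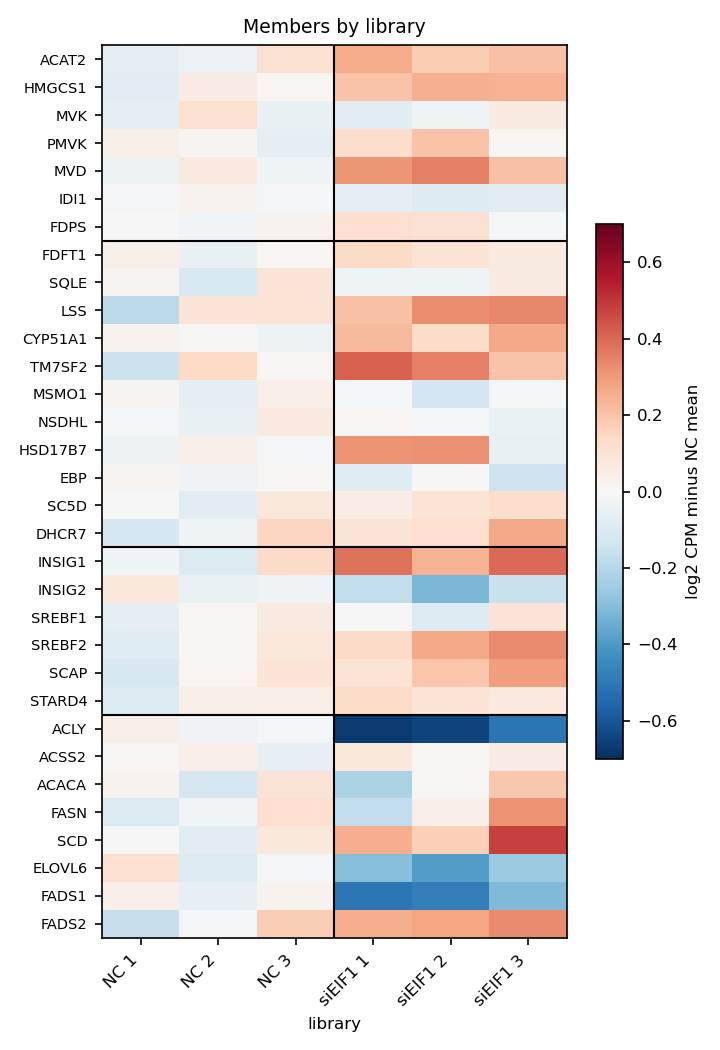
Log2 CPM of each member in each library minus the mean of its NC libraries, with rows grouped by branch and 1 column per library. ACLY, ELOVL6, FADS1 and INSIG2 are blue in all 3 siEIF1 columns, and FASN and ACACA differ in sign between siEIF1 replicates 1 and 3.

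The other genes around these pathways were taken from 6 lists of 93 genes, of which 87 were tested. Of these, 10 were higher (11.5%) and 14 lower (16.1%) at an adjusted p under 0.05 by edgeR, with a median log2 fold change of -0.0039. Over all tested genes the shares were 10.2% higher and 10.4% lower. They were 14.1% and 13.2% among the genes with at least the mean count of the least counted member. By list, the share passing in either direction ran from 15% (elongation, desaturation and activation) to 63.6% (citrate and NADPH supply), beside 20.6% of all tested genes. No difference from these shares was tested. The supply of citrate and NADPH had 5 of 11 tested genes higher and 2 lower. SLC25A1, the mitochondrial citrate carrier, rose from 57.4, 59.0 and 59.3 FPKM to 69.0, 72.9 and 70.9 FPKM (log2 fold change 0.30, edgeR adjusted p = 7.22e-04), while ACLY, which acts on the exported citrate, fell.

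IDH1, the cytosolic isocitrate dehydrogenase that yields NADPH, fell from 33.2, 24.8 and 29.1 FPKM to 16.8, 14.2 and 18.5 FPKM (log2 fold change -0.80, edgeR adjusted p = 6.97e-05). ME1, the malic enzyme that also yields NADPH, had a log2 fold change of 0.48 (edgeR adjusted p = 3.13e-04) and so went the other way. MID1IP1, a partner of acetyl-CoA carboxylase, fell by 0.45 on the log2 scale.

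In SREBP processing and sterol sensing, 2 of 12 genes were higher and 3 lower. ERLIN2, a sterol-sensitive protein of the endoplasmic reticulum, rose from 5.43, 5.58 and 5.62 FPKM to 7.25, 7.08 and 7.45 FPKM (log2 fold change 0.41, edgeR adjusted p = 5.00e-05). MBTPS1, the first protease that cuts the SREBP factors, rose with a log2 fold change of 0.25. PAQR3, a Golgi anchor of SCAP, fell by 0.40 on the log2 scale, and SPRING1, a cofactor of that protease, fell by 0.25.

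In the isoprenoid branch 3 of 12 were lower (ZMPSTE24, PDSS1 and RCE1). ZMPSTE24, a protease of prenylated proteins, lost its call without NC replicate 1 (edgeR adjusted p = 0.0694) or siEIF1 replicate 2 (0.0783). PDSS1, which makes the side chain of ubiquinone, lost its call without any 1 of the libraries but NC replicate 2 (up to 0.177 without NC replicate 1) and with DESeq2 (0.0858). RCE1, another protease of prenylated proteins, lost its call whichever library was left out (0.0558 to 0.110), without the filter on low counts (0.0853) and with DESeq2 (0.122). In sterol handling 1 of 17 tested was higher (NR1H2) and 2 were lower (LBR and TMEM97). Of 20 tested genes of elongation, desaturation and activation, 1 was higher (ELOVL1) and 2 were lower (ELOVL7 and FADS3). In glycerolipid synthesis 1 of 15 was higher (LPIN1) and 2 were lower (PLIN2 and AGPAT5). The call of LPIN1, a phosphatase of phosphatidic acid, was lost without NC replicate 1 (edgeR adjusted p = 0.1005), NC replicate 2 (0.120), siEIF1 replicate 2 (0.0732) or siEIF1 replicate 3 (0.0538). PLIN2, the coat protein of lipid droplets, had 117.1, 83.5 and 79.6 FPKM in NC and 60.3, 53.4 and 54.7 in siEIF1 (log2 fold change -0.72, edgeR adjusted p = 6.84e-04), with NC replicate 1 far above the other NC libraries.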

How the data were processed

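RNA-seq was analysed for 3 NC and 3 siEIF1 libraries, grouped by sample title. The authors trimmed the reads with FASTX-Toolkit, aligned them to GRCh38 with HISAT2 and deposited raw counts of uniquely mapped reads per gene. The FPKM values were also computed by the authors, and were used here for levels. The counting program, its strand setting and the annotation release are not given in the sources used here. Every column was assigned to a library (0 unmatched). After filterByExpr the counts were fitted with TMM factors and the quasi-likelihood test of edgeR 4.0.16 in R 4.3.3, with Benjamini-Hochberg adjustment over 16749 genes. Standard errors were derived from the F statistic, and 95% intervals use its degrees of freedom. The fit was first tested on simulated counts.

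Alternatives were RLE and upper-quartile factors, no filter, at least 10 counts in every library, DESeq2 1.42.0 (the authors' tool), limma 3.58.1 on log2(FPKM + 1) or log2(FPKM + 0.1), a replicate block, stricter limits and leaving out each library. The members and gene lists were chosen with earlier results of these data known. The genes named are EIF1, all members and, of each wider list, up to 3 with the smallest p among those that passed. Some genes that this rule names are not reported here. LBR was also used in a ratio. SLC25A1, ME1, MBTPS1 and SPRING1, the 4 ratios and the 6 printed promoters were chosen after their values were seen. Gene positions and overlaps are from GENCODE release 44, in which 25 of 32 members have the version of the gene identifier that the deposited counts use.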

Additional observations from a re-analysis of the deposited data

How the results depend on the processing

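DESeq2, RLE and upper-quartile factors and both other filters left every count of members and wider genes within 1.5 times its value, and all medians within the spread. With limma on log2(FPKM + 1), 3 members were higher, 2 of them sterol enzymes (0 from squalene to cholesterol), 1 regulator was higher and 0 lower, 0 fatty acid enzymes were higher, and the medians were 0.057 (all) and 0.081 (sterol). With limma on log2(FPKM + 0.1), 1 member was higher and 2 lower, with 1 sterol enzyme higher (1 of mevalonate, 0 from squalene to cholesterol), 0 regulators in either direction, 0 fatty acid enzymes higher, 6 wider genes higher, and a fatty acid median of -0.0010. All genes passing then numbered 1735 against 3446. The cause was not tested.

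At an adjusted p under 0.01, 3 members were higher, with 1 sterol (1 mevalonate, 0 squalene to cholesterol), 1 regulator (0 lower) and 1 fatty acid enzyme. With the 2-fold limit, 0 members of any branch passed in either direction. Leaving out 1 library gave 6 to 11 members higher and 3 to 4 lower, 2 to 7 sterol (1 to 3 mevalonate, 1 to 4 squalene to cholesterol), 1 to 3 regulators higher and 0 to 1 lower, and 0 to 2 fatty acid enzymes higher. The medians were then 0.067 to 0.11 (all), 0.092 to 0.12 (sterol), 0.069 to 0.16 (mevalonate), 0.067 to 0.13 (squalene to cholesterol), 0.096 to 0.18 (regulators) and -0.087 to 0.066 (fatty acid). Fewest genes of all passed without siEIF1 replicate 2, 2242.

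Log2 fold changes near 0 turned sign with a library left out, for MVK (-0.057 to 0.038), SQLE (-0.059 to 0.045), NSDHL (-0.047 to 0.020), SREBF1 (-0.049 to 0.042), ACACA (-0.10 to 0.099) and FASN (-0.070 to 0.18).

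The replicate numbers are only numbers. Deviations of same-numbered libraries from their group means correlated at 0.149, 0.0946 and 0.128, and each library correlated best with its own number. This is a weak hint, because taking deviations within so few libraries ties the correlations together. Whether the libraries were paired was not tested. With a replicate block, 4277 genes passed and 12 members were higher, DHCR7 being the added one (0.16, adjusted p = 0.0222). SQLE was at 0.00048 with the block.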
